A study of Macaca fascicularis with 3 samples.

Results

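The ribosomal protein genes are described here by the share of captured RNA they held in cynomolgus macaque muscle. Members were the table rows whose symbol starts with RPL or RPS and a digit, with RPSA and RPLP0 to RPLP2 added and the RPS6K kinases left out. The 2 nuclei tables named 40 members among 38550 rows, and the cell table named 84 among 33368 rows. Together they held 88 symbols, of which 36 stood in both kinds of table, 4 in the nuclei tables only (RPL17, RPL36A, RPS4Y1 and RPS4Y2) and 48 in the cell table only. The nuclei tables named 10 small-subunit genes, 20 large-subunit genes, the 3 stalk genes and 6 like-named copies, while the cell table named 30 small-subunit and 42 large-subunit genes, the 3 stalk genes and 8 like-named copies. The rule also took in RPS19BP1, which is named for a partner of RPS19 and is not a ribosomal protein. It took in RPL8_1, a second row for RPL8 with 8 UMIs (unique molecular identifiers, tags that count captured RNA molecules).

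The data came from 3 libraries of Macaca fascicularis, 1 in each group: nuclei of extraocular muscle (EOM), nuclei of the quadriceps femoris muscle (QFM) and whole cells of EOM. EOM moves the eye and QFM extends the knee. The labels give no age, sex, treatment or number of animals. For QFM the sample's title names nuclei, but its file names speak of cells. On the 36 shared symbols the members held 0.4275% of UMIs in QFM, 0.2177% in EOM nuclei and 2.907% in EOM cells. These shares are the measure compared below, so they cannot settle what the QFM library holds. The label of the title was kept. Each group is 1 library, so differences have no replicate check and none was tested. Intervals are exact binomial ones at 95% for counting error alone.

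Ribosomal proteins join ribosomal RNA to form the small and the large subunit of the ribosome, and the acidic proteins RPLP0, RPLP1 and RPLP2 form the stalk of the large subunit that recruits elongation factors. Their mRNAs are short, abundant and stable, sit mostly in the cytoplasm, and start with a terminal oligopyrimidine (TOP) tract through which mTOR signalling controls their translation. In muscle, RPL3L replaces RPL3 in the ribosomes of mature fibres. Ribosomal protein genes have many near-identical processed copies in mammalian genomes, so the count of a single member is uncertain where reads could be split between copies.

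Depth came to 61618999 UMIs over 16491 barcodes in EOM nuclei, 72590186 over 12503 in those of QFM and 12248405 over 8979 in EOM cells. Filters and a doublet caller left 13975, 10525 and 7111 of these, whose median depth was 2811, 4508 and 1142 UMIs. The median kept barcode held 6 member UMIs in EOM nuclei, against 14 in QFM nuclei and 81 in the cells, where more members are named. No member UMI was found in 286 EOM nuclei (2.05%), 5 QFM nuclei (0.0475%) and 0 EOM cells. Clusters were built without the members, so that a member's level by class did not come from the clustering, and were named "-like" from markers. In all, 5 of 30 EOM nuclei clusters (1075 nuclei) and 5 of 25 EOM cell clusters (1286 cells) stayed unnamed. The nuclei libraries shared 51 barcode sequences, 33 of them among those kept. Myofibre-like nuclei carried the myofibre list, with all 11 named markers above 0 and a summed level of 35843 CPM (UMI counts of a gene scaled to a common library total) in EOM and 55584 CPM in QFM. That list also reached 4390 and 5377 CPM in endothelial-like nuclei, which should lack it.

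Over all kept barcodes the members took 0.242% of UMIs in EOM nuclei (119878 UMIs, interval 0.240 to 0.243), 0.459% in QFM nuclei (247675 UMIs, 0.457 to 0.461) and 7.201% in EOM cells (695569 UMIs, 7.184 to 7.217). Of the cell UMIs, 280836 belonged to symbols that both kinds of table name. The nuclei shares count only 40 named members, against 84 in the cells, and 48 symbols were named for cells only. They are thus partial, give no share for the whole family in nuclei, and cannot be set against 7.201% directly. The leading members differed between libraries. In EOM nuclei RPL3L led with 10.29% of member UMIs, and RPS6 (5.72%), RPS4Y2 (5.65%), RPL5 (4.44%) and RPLP1 (4.32%) were also among the leading 6. In QFM nuclei RPLP1, a stalk protein, led with 7.77%, and RPL3L (6.94%), RPL37A (4.73%), RPL5 (4.24%) and RPS28 (4.17%) were also among the leading 6. In EOM cells RPS18 led with 5.21%, followed by RPS27 (4.11%), RPL23A (3.72%), RPL34 (3.32%), RPL21 (3.26%) and RPL13 (2.87%). The leading 6 took 35.41%, 34.77% and 22.49% of the member UMIs in the 3 libraries. RPS27, RPL23A, RPL34 and RPL21 have no row so named in the nuclei tables, so their order cannot be set against nuclei.

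**Figure D1:**
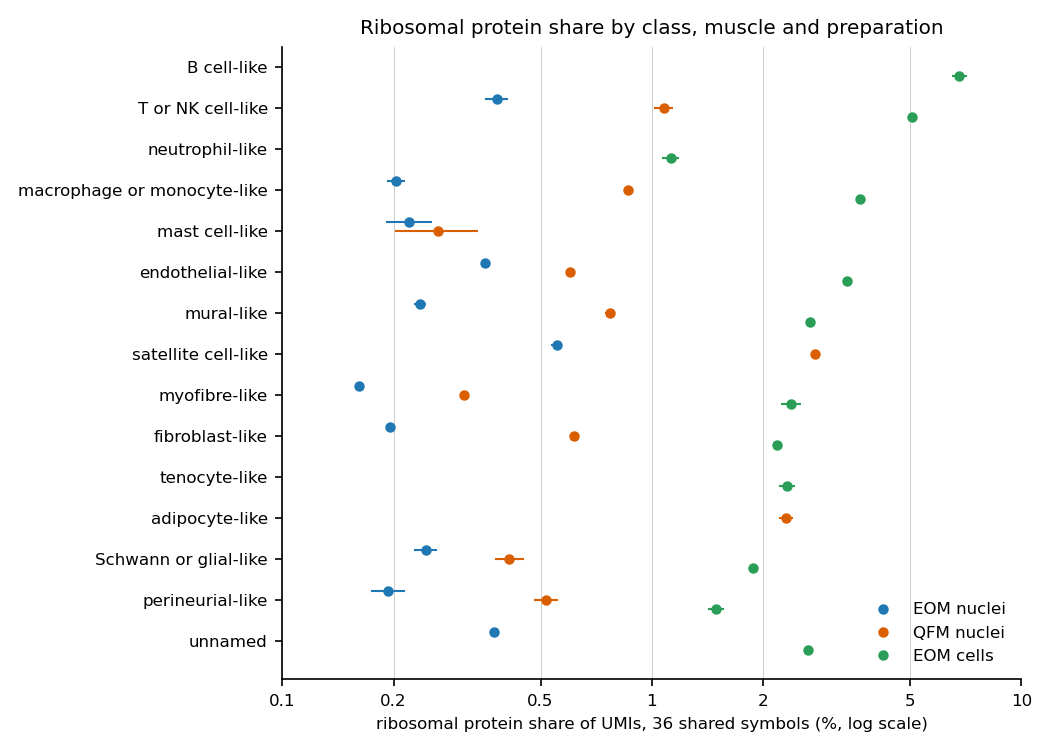
Share of UMIs held by the 36 ribosomal protein symbols named in both kinds of table (x axis, percent, log scale) for each class (y axis) in EOM nuclei, QFM nuclei and EOM cells, with 1 library each; points are sums over the class and lines are 95% exact binomial intervals for counting error. Every class seen in both nuclei libraries lies further right in QFM than in EOM, and the EOM cells lie between 1.124% (neutrophil-like) and 6.80% (B cell-like). The name perineurial-like is uncertain in EOM cells.

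Among EOM nuclei the share was lowest in myofibre-like nuclei and highest, of the named classes, in satellite cell-like nuclei, the resident stem cells of muscle. Myofibre-like nuclei (7441) held 0.185% of their UMIs in members, perineurial-like nuclei 0.214%, fibroblast-like nuclei 0.215%, macrophage- or monocyte-like nuclei 0.2201%, mast cell-like nuclei 0.2503%, mural-like nuclei 0.258% and Schwann- or glial-like nuclei 0.264%. From the perineurial- to the Schwann- or glial-like class, the intervals of neighbours in this order overlap. Endothelial-like nuclei followed with 0.380%, T or NK cell-like nuclei with 0.407% (136 nuclei), whose intervals also overlap, and satellite cell-like nuclei with 0.583% (556 nuclei). Within the endothelial-like class the share ran from 0.295% in the BMX and VEGFC cluster to 0.503% in the ACKR1 and SELP cluster. The unnamed nuclei stood at 0.405% when pooled and at 0.936% in the median nucleus. A deep unnamed cluster of 172 nuclei, with a median of 12386 UMIs, held 4540437 of their 5733764 UMIs and stood at 0.260%. The unnamed cluster with the most nuclei, 692 with a median of 842 UMIs, was led by the neuronal genes GRIA2, CELF4 and SNAP25. It reached 1.30%, the highest of the library, with 1.997% mitochondrially encoded UMIs.

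In QFM nuclei the satellite cell-like class again stood highest, and the mast cell- and myofibre-like classes lowest. Mast cell-like nuclei (10 nuclei, 68 member UMIs) stood at 0.280%, myofibre-like nuclei (7417) at 0.336%, within its interval, Schwann- or glial-like at 0.436%, perineurial-like at 0.555%, endothelial-like nuclei at 0.635% and fibroblast-like nuclei at 0.654%. Mural-like nuclei stood at 0.813%, macrophage- or monocyte-like nuclei at 0.905% and T or NK cell-like nuclei at 1.13% (44 nuclei). Adipocyte-like nuclei reached 2.43%, in 19 nuclei of 1 cluster, and satellite cell-like nuclei 2.91%, in 395 nuclei. The PI16 and VCAN cluster of fibroblast-like nuclei stood at 0.902%, against 0.425% in the SCN7A and BMPER cluster. The satellite cell-like value was not set by a few nuclei: the middle 50% of them lay between 1.945% and 3.78%, around a median of 2.82%.

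Among whole cells of EOM the lymphocytes led. B cell-like cells (39) held 17.1% of their UMIs in members and T or NK cell-like cells (615) 13.4%. Macrophage- or monocyte-like cells followed at 8.86%, endothelial-like cells at 8.32%, mural-like cells at 6.54%, tenocyte-like cells at 6.003%, myofibre-like cells at 5.97% (33 cells) and fibroblast-like cells at 5.61%. Schwann- or glial-like cells stood at 4.47%, perineurial-like cells at 3.89% and neutrophil-like cells at 2.83%, the lowest class. The name perineurial-like is uncertain in cells, since none of its markers was among that cluster's leading genes. These included APOD, ABCA9 and ABCA10, which were also among those of an unnamed cluster of EOM nuclei. The tenocyte- and myofibre-like intervals overlap. Median depth ran from 603 UMIs in neutrophil-like to 2104 in macrophage- or monocyte-like cells, and the lymphocyte classes had 672 (T or NK cell-like) and 749 (B cell-like), so the order of the shares did not follow depth.

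Within lymphoid and myeloid cells, the highest and lowest clusters of a class differed by about 2-fold. A T cell-like cluster held 22.6% of its UMIs in members over 53 cells. Its leading genes included IL7R, TCF7 and LTB, genes of naive and memory T cells, but also CD7, XCL1 and CTLA4. The cytotoxic cluster led by GZMH, NKG7 and GNLY held 12.4% over 562 cells, a log2 ratio of 0.87 (0.84 to 0.90). Of 78 measured members, those with at least 20 counts over both sums, 22 stood at least 2-fold higher in the IL7R cluster, against 8.48% of all genes measured there. The members' median was 0.85 while the median of all genes was -0.17. That count was 14 with the 100 most abundant other genes left out of the totals and 2 with median ratio scaling. RPL7A (1.68), RPL3 (1.49) and RPS3A (1.33), proteins of both subunits, differed most on the log2 scale, while the copy RPL36AL stood at 0.12. Monocyte-like cells led by IL1B and FCN1 held 9.80% over 222 cells, and macrophage-like cells led by LYVE1 and FOLR2, genes of resident macrophages, held 4.81% over 79 cells. The other clusters of this class lay nearer the monocyte-like value. The cluster led by APOC1 and CHIT1 held 9.75% over 142 cells and that led by PLD4 held 8.13% over 175 cells. Between the IL1B and LYVE1 clusters, 36 of 78 members stood at least 2-fold higher in the monocyte-like cluster, against 22.6% of all genes. RPL10 (1.68) and RPLP0 (1.52) differed most. RPS19BP1 (-0.90), RPS27L (-0.67) and RPS10 (-0.33) stood lower in the monocyte-like cluster. These clusters were singled out after their shares were seen.

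The next comparison set the muscles side by side within a class of nuclei. Members held less of the RNA in EOM than in QFM in every class named in both libraries, although the intervals of the mast cell-like class overlap, and the gap was largest in satellite cell-like nuclei. In myofibre-like nuclei the shares were 0.185% in EOM and 0.336% in QFM, a log2 ratio of -0.86 (-0.88 to -0.85). In satellite cell-like nuclei they were 0.583% and 2.91% (log2 -2.32, interval -2.36 to -2.28), in macrophage- or monocyte-like nuclei 0.2201% and 0.905% (-2.04), in mural-like nuclei 0.258% and 0.813% (-1.66) and in fibroblast-like nuclei 0.215% and 0.654% (-1.60). Endothelial-like nuclei stood at 0.380% and 0.635% (-0.74, interval -0.77 to -0.71). T or NK cell-like nuclei stood at -1.47 and the Schwann- or glial-like class at -0.72, from 136 and 158 nuclei in EOM and 44 and 31 in QFM. The myofibre list summed, in EOM and then QFM, to 6032 and 21389 CPM in T or NK cell-like nuclei. In Schwann- or glial-like nuclei it summed to 10518 and 13622 CPM, and in mural-like nuclei to 14417 and 10553 CPM. The part of fibre RNA in these ratios was not tested. The muscles are each 1 library, so muscle, animal and library cannot be told apart.

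Single members of the myofibre-like nuclei showed the same direction with exceptions. Of 40 members, 38 were measured, the others being RPL10L and RPL29 with at most 2 UMIs each in either sum. Of the 38, 17 stood at least 2-fold lower in EOM, against 9.48% of 18985 genes, and 0 stood at least 2-fold higher, against 32.5% of genes. The members' median log2 ratio was -0.91 and that of all genes 0.39, which other scalings put at 0.30 (100 most abundant genes left out) or 0.12 (median ratio). The stalk genes all lay below 0. RPLP1 reached 290.7 CPM in QFM against 59.5 CPM in EOM (log2 -2.29), the lowest of all members. RPLP0 stood at 32.7 CPM in EOM and 102.6 in QFM (-1.65), and RPLP2 at -0.60.

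Of the small-subunit genes, RPS23, at the decoding centre, reached 90.4 CPM in QFM against 30.7 CPM in EOM (log2 -1.56) and RPS28 131.1 against 47.7 CPM (-1.46). RPS6, the substrate of the S6 kinases, went against them, with 117.5 CPM in EOM and 104 in QFM (0.18, interval 0.11 to 0.24). Of the large-subunit genes, RPL37A stood, in EOM and then QFM, at 52.3 and 169.3 CPM (-1.69), RPL39, at the peptide exit tunnel, at 44.4 and 136 CPM (-1.62), RPL38 at 37.0 and 107 CPM (-1.53) and RPL30 at 43.5 and 117.4 CPM (-1.43). RPL9 stood nearer, at 31.8 and 44.3 CPM (-0.48). RPL3, which reaches towards the peptidyl transferase centre, was the highest of all members in EOM relative to QFM, with 24.1 and 16.8 CPM (0.52), followed by RPL35 with 27.5 and 20.3 CPM (0.44). RPS6, RPS4Y2 (0.12) and RPL7L1 (0.10) lie above 0 on the scale of all UMIs but below the median of all genes, and under median ratio scaling they lie below 0, whereas RPL3 and RPL35 stay above 0 under each scaling.

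**Figure D2:**
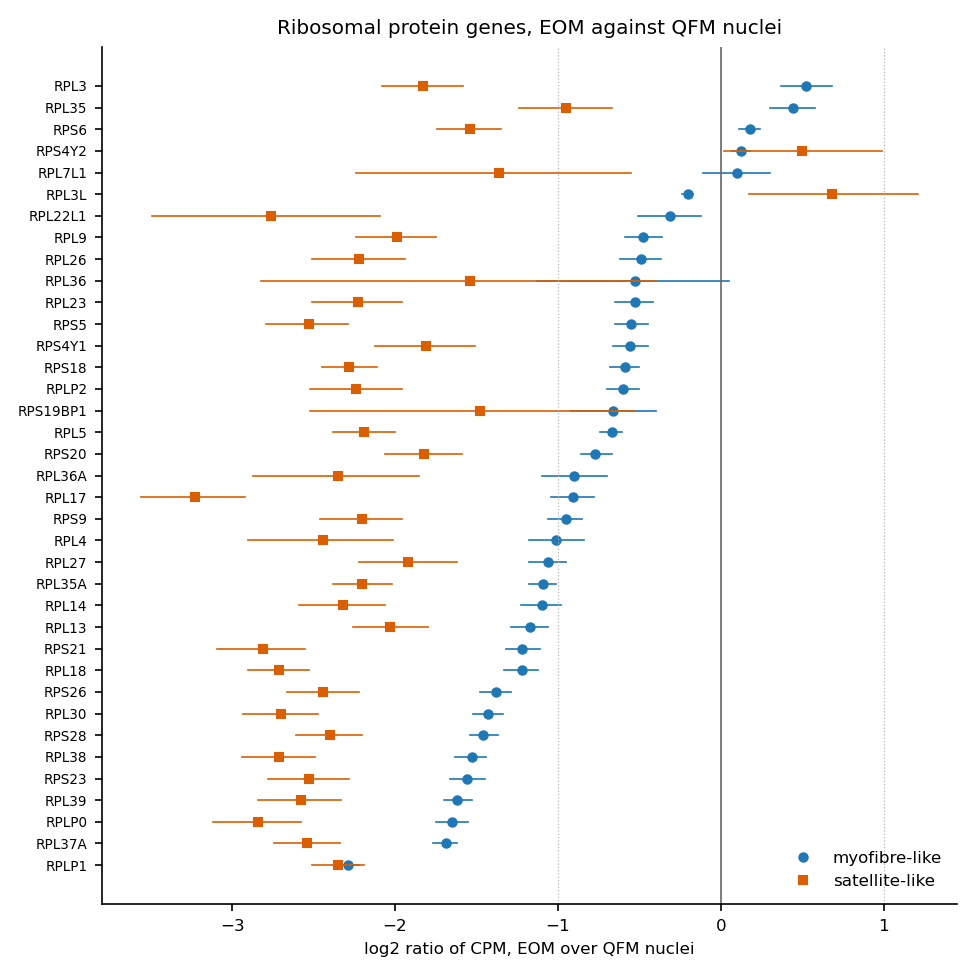
Log2 ratio of CPM in EOM over QFM nuclei (x axis) for 37 of the 38 measured ribosomal protein genes (y axis) in myofibre-like (circles) and satellite cell-like (squares) nuclei, 1 library per muscle; lines are 95% conditional exact binomial intervals and dotted lines mark 2-fold. RPLP1 has nearly the same ratio in both classes (-2.29 and -2.35), whereas RPL3 lies at 0.52 in myofibre-like and -1.83 in satellite cell-like nuclei.

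The muscle gap in myofibre-like nuclei was smaller without the clusters rich in mitochondrial RNA. QFM held 3 myofibre-like clusters with over 1% mitochondrially encoded UMIs: 485 nuclei with 0.702% members and 1.53% mitochondrial UMIs, 173 with 1.05% and 3.29%, and 83 with 2.61% and 6.16%. EOM held 1 such cluster, of 164 nuclei with 0.493% and 1.71%. Without these 741 QFM and 164 EOM nuclei the shares were 0.2502% in QFM and 0.180% in EOM, the log2 ratio was -0.48, and 5 members stood at least 2-fold lower in EOM in place of 17. The EOM class also held a cluster of 1402 nuclei with a median of 1320.5 UMIs and 0.266% members. At 0.957% mitochondrial UMIs it lay just under 1%, with ATP8, ND4, ND5 and COX2 among its leading genes. It was therefore kept in the ratio of -0.48, which depends on where that cut is placed. With only this cluster left out the ratio was -0.94. The part of cytoplasmic RNA in these values was not tested. Split at 0.5% mitochondrial UMIs per nucleus, the myofibre-like log2 ratio was -0.61 (-0.63 to -0.60) below the limit, where most nuclei lay (4846 in EOM and 6432 in QFM), and -1.66 (-1.69 to -1.64) at or above it. In satellite cell-like nuclei the same split gave -1.98 (-2.06 to -1.90) and -2.30 (-2.34 to -2.25), in fibroblast-like nuclei -1.22 and -2.24, and in endothelial-like nuclei -0.69 and -1.37. In each of these 4 classes members were lower in EOM on both sides of the limit.

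Across all clusters, those with more mitochondrially encoded RNA also held more member RNA in nuclei. Spearman's rho over clusters was 0.70 in EOM nuclei (30 clusters), 0.91 in QFM nuclei (25 clusters) and 0.41 in EOM cells (25 clusters), as a description without a test, since clusters of a library share its depth and its free RNA. Against the median UMIs of the cluster rho was -0.53, -0.20 and 0.13. The satellite cell-like clusters held 0.828% mitochondrially encoded UMIs in EOM and 1.22% in QFM.

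**Figure D3:**
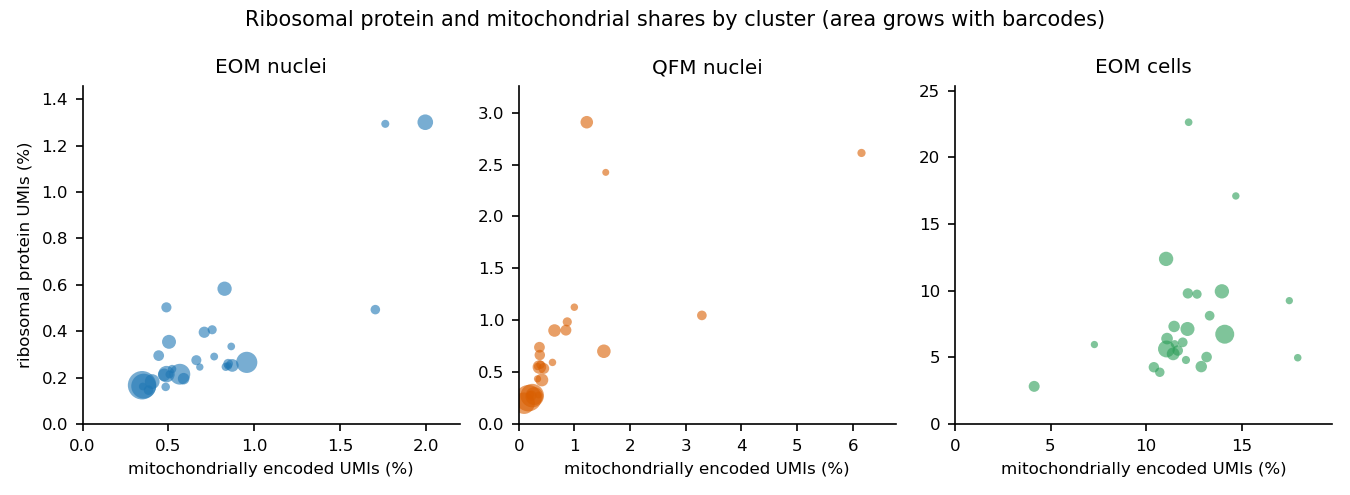
Share of UMIs from ribosomal protein genes (y axis, percent) against the share from mitochondrially encoded genes (x axis, percent) for every cluster of EOM nuclei (30 clusters), QFM nuclei (25) and EOM cells (25); axes differ between panels and point area grows with the number of barcodes. The highest EOM nuclei point, at 1.30%, is an unnamed cluster of 692 nuclei, and the highest QFM point is the satellite cell-like cluster, at 2.91%.

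Satellite cell-like nuclei held the most member RNA of the larger classes in both muscles, and the distance to myofibre-like nuclei was greater in QFM. Relative to myofibre-like nuclei of the same library, their share was 3.16-fold higher in EOM (log2 1.66, interval 1.62 to 1.70) and 8.65-fold higher in QFM (3.11, interval 3.09 to 3.13). The members' median was 2.01 in EOM and 3.31 in QFM, and that of all genes 0.40 and 0.71. In EOM 33 of 38 measured members stood at least 2-fold higher, against 28.1% of all genes, and in QFM 36 of 38, against 41.4% of all genes. RPL3 differed most in QFM, at 574.8 CPM against 16.8 CPM in myofibre-like nuclei (log2 5.10). RPL18, a large-subunit protein, stood at 1665 and 74.95 CPM (4.47) and RPS18 at 1586 and 81.35 CPM (4.29). RPL3L and RPS4Y2 went the other way in both muscles: RPL3L at -2.12 in EOM and -3.01 in QFM, RPS4Y2 at -0.98 and -1.36.

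Set between muscles, 35 of 38 members stood at least 2-fold lower in EOM than in QFM satellite cell-like nuclei, against 12.3% of all genes. The members' median was -2.26, and the median of all genes was 0.01. In EOM and then QFM, RPL17 stood at 84.35 and 793.2 CPM (log2 -3.23), the copy RPL22L1 at 19.5 and 131.6 CPM (-2.76) and RPLP1 at 359.6 and 1828 CPM (-2.35). The 3 members outside 2-fold lower were RPL35 (-0.95), RPS4Y2 (0.50) and RPL3L (0.68). The myofibre list summed to 7494 CPM in the EOM and 5938 CPM in the QFM satellite cell-like nuclei, with all 11 markers above 0, and the part of fibre RNA in these values was not tested. The satellite cell list itself summed to 2161 and 3113 CPM, with all 5 named markers above 0 in both.

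The stromal, vascular and myeloid nuclei followed the same direction. At least 2-fold lower in EOM stood 34 of 38 members in fibroblast-like nuclei (13.2% of all genes), 30 of 37 in mural-like nuclei (12.7%), 33 of 37 in macrophage- or monocyte-like nuclei (15.2%) and 8 of 38 in endothelial-like nuclei (6.34%). RPLP0 lay at -2.45 in fibroblast-like, -2.79 in macrophage- or monocyte-like and -0.98 in endothelial-like nuclei. RPS6 lay close to 0 in fibroblast-like (-0.05) and endothelial-like nuclei (0.16) and at -0.61 in macrophage- or monocyte-like nuclei. In type I myofibre-like nuclei the share of members was 0.194% in EOM and 0.328% in QFM (log2 -0.76), and in type II nuclei 0.185% and 0.348% (-0.91). The types thus lay close together in both muscles, with type I higher in EOM and type II higher in QFM. Among QFM nuclei this order turned in the median nucleus, with 0.278% in type I and 0.243% in type II, and 2 of the 3 QFM clusters rich in mitochondrial RNA described above were type II.

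The last comparison asked how cells differ from nuclei within EOM. On the 36 shared symbols the members held 11.2-fold more of the UMIs in fibroblast-like cells than in fibroblast-like nuclei (2.19% and 0.196%, log2 3.48, interval 3.45 to 3.51). In endothelial-like barcodes the shares were 3.39% and 0.355%, a 9.55-fold difference (3.25, interval 3.23 to 3.28). The endothelial-like classes were not matched by subtype. A cluster with SLC19A3 and LEF1 among its leading genes was named endothelial-like in nuclei (524 nuclei) but stayed unnamed in cells (318 cells). Mural-like (log2 3.50), macrophage- or monocyte-like (4.17), T or NK cell-like (3.73) and Schwann- or glial-like barcodes (2.94) showed the same direction. Counting all members each table names gave 4.70 in fibroblast-like and 4.45 in endothelial-like barcodes, a larger ratio because the cell table names more members. The libraries also differ in barcode length (27 bases in cells, 16 in nuclei) and in gene models, so preparation, chemistry and gene models cannot be told apart.

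**Figure D4:**
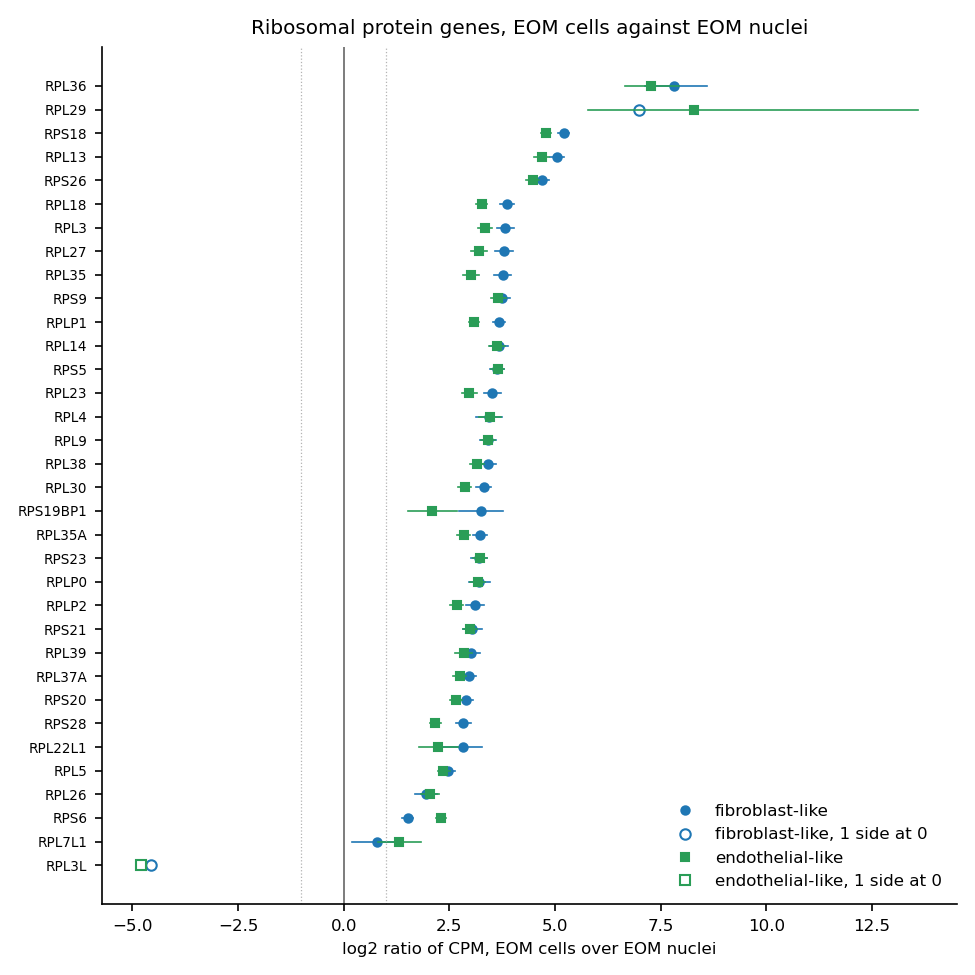
Log2 ratio of CPM in EOM cells over EOM nuclei (x axis) for 34 of the 35 measured ribosomal protein symbols named in both tables (y axis), in fibroblast-like (circles) and endothelial-like (squares) barcodes; lines are 95% conditional exact binomial intervals, open symbols have a count of 0 on 1 side, taken as 3 counts. All members but RPL3L lie above 0, from RPL7L1 at 0.78 to RPL36 at 7.81 in fibroblast-like barcodes.

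Nearly every member stood higher in fibroblast-like cells than in fibroblast-like nuclei. Of 35 measured, 33 were at least 2-fold higher, against 23.4% of 9790 genes, and 1, RPL3L, at least 2-fold lower, against 47.8% of genes. In endothelial-like barcodes 34 of 35 were at least 2-fold higher, against 21.9% of genes. The median member lay at 3.31 in fibroblast-like and 3.01 in endothelial-like barcodes, and the median of all genes at -0.89 and -0.91. The largest ratios belonged to members with few UMIs in nuclei. RPL36 stood at 653 CPM in cells and 2.90 CPM in nuclei (17 UMIs) of the fibroblast-like class (log2 7.81, interval 7.13 to 8.60). RPL29 had 90 UMIs in cells and 0 in nuclei, which puts it 127-fold higher when 0 is taken as 3 counts over the class. Counting error gives a lower log2 limit of 6.66. RPS18 (2927 and 79.73 CPM), RPL13 (1824 and 55.5 CPM, 5.04), RPS26 (1491 and 58.1 CPM, 4.68), RPL18 (842.5 and 57.9 CPM, 3.86), RPL3 (647.2 and 45.9 CPM, 3.82) and RPL27 (601.7 and 43.5 CPM, 3.79) followed.

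At the other end, RPS6 stood at 562.6 CPM in cells and 197 CPM in nuclei (1.51), RPL26 at 167.8 and 43.5 CPM (1.95), RPL5, which carries the 5S ribosomal RNA, at 514.2 and 92.7 CPM (2.47), RPL22L1 at 78.1 and 11.1 CPM (2.82) and RPS28 at 530.8 and 74.4 CPM (2.83). The copy RPL7L1 differed least, with 27.5 and 16.05 CPM (0.78, interval 0.19 to 1.33). Among the members higher in cells the ratios thus ran from 0.78 for RPL7L1 to 7.81 for RPL36 within a single class. How far gene models and near-identical copies set this spread was not tested.

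In nuclei most members held a like part of the member RNA, within 2-fold, in the classes compared. Each member's part of the member UMIs was compared over the classes with at least 5000 member UMIs, for members with at least 500 counts there. The highest part was less than 2-fold above the lowest for 28 of 35 members over 4 classes in EOM nuclei, for 26 of 37 over 6 classes in QFM nuclei and for 37 of 78 over 9 classes in EOM cells. Such a spread can only grow as classes are added. The classes and members also differ between libraries, so these counts do not compare nuclei with cells. RPL39 (1.19-fold) varied least in EOM nuclei, RPLP0 (1.21-fold) and RPL30 (1.22-fold) in QFM nuclei, and RPL6 (1.23-fold) and RPL19 (1.25-fold) in EOM cells. RPL3L (14.5-fold and 69.6-fold) and RPS4Y2 (6.23-fold and 22.2-fold) varied most in EOM and QFM nuclei, both highest in myofibre-like nuclei. In cells the neutrophil-like class stood apart: it held the lowest part of RPL10A (0.119%, 6 UMIs), RPL3 (0.337%, 17 UMIs) and RPS19 (0.475%, 24 UMIs), and the highest of RPL23 (4.54%) and RPS9 (5.94%). RPL23A alone took 10.2% of neutrophil-like member UMIs, against 3.54% in fibroblast-like cells.

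RPL3L, the striated-muscle form of RPL3, was the most abundant member in myofibre-like nuclei of both muscles. Its level was 390.6 CPM in QFM against 339.6 CPM in EOM (log2 -0.20, interval -0.24 to -0.17) and made up 18.4% of the member UMIs in EOM and 11.6% in QFM. Without it the share of members was 0.151% in EOM and 0.297% in QFM. RPL3 stood at 24.1 and 16.8 CPM in the same order, so RPL3L took 93.66% of the pair in type II and 91.79% in type I nuclei of EOM, and 95.16% and 96.62% in QFM. RPL3L was highest in QFM type I nuclei (476.6 CPM), followed by EOM type II (347.5 CPM), QFM type II (326.6 CPM) and EOM type I nuclei (318.7 CPM). Between muscles it stood at -0.58 in type I and 0.09 in type II nuclei.

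Outside the fibres RPL3 was the larger of the pair in satellite cell-, endothelial- and T or NK cell-like nuclei of both muscles. RPL3L took 32.43% of the pair in EOM and 7.78% in QFM satellite cell-like nuclei (84 of 259 and 52 of 668 UMIs), and 31.79% and 22.21% in endothelial-like nuclei. In EOM fibroblast-like nuclei the parts were alike, with 299 RPL3L and 269 RPL3 UMIs, and in EOM mural-like nuclei, where the myofibre list summed to 14417 CPM, RPL3L took 68.93%. As a part of the level in myofibre-like nuclei, the endothelial-like level of RPL3L was 14.1% in EOM and 9.66% in QFM. The fibre genes NEB (10.97% and 6.995%), TRDN (9.52% and 7.03%) and MYBPC1 (10.9% and 7.44%), which endothelial cells should lack, stood at a like part, whereas RPL3 stood at 426.2% and 787.3%. RPL3L UMIs outside myofibre-like nuclei therefore cannot be told from free RNA. In EOM cells RPL3L had 13 UMIs against 4 of RPL3 in the 33 myofibre-like cells, and 0 against 895, 1812 and 1784 in fibroblast-, endothelial- and mural-like cells. Against a floor of 3 counts RPL3L stood 23.5-fold lower in fibroblast-like cells than in fibroblast-like nuclei, where it cannot be told from free RNA. Counting error brings the log2 ratio to -4.25 at the nearest.

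**Figure D5:**
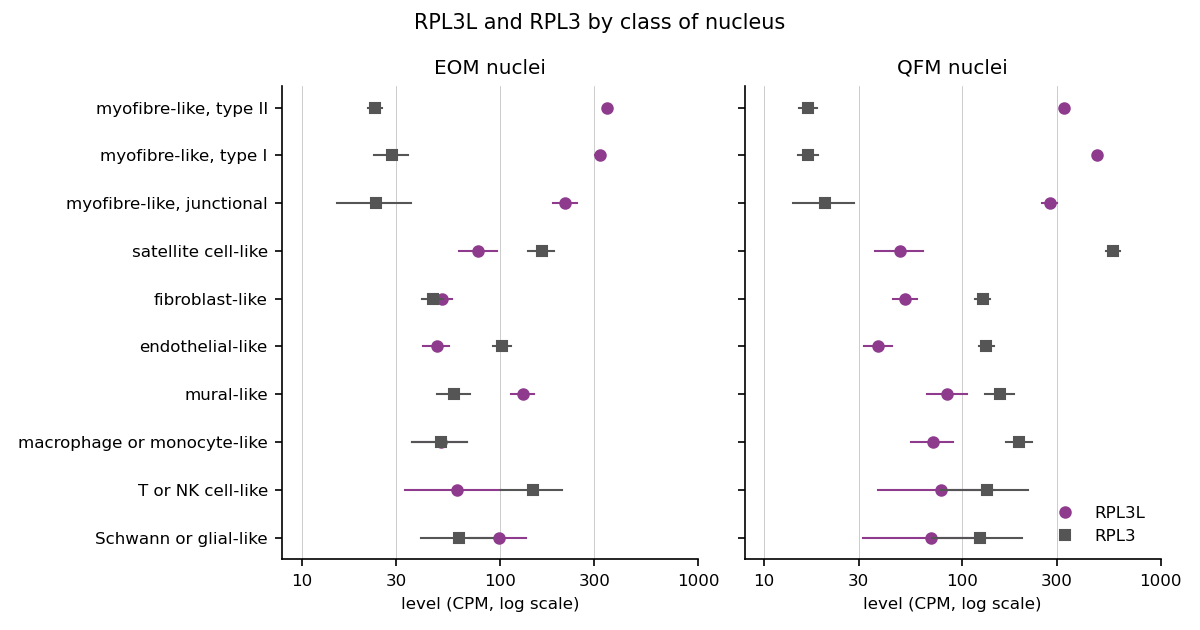
Levels of RPL3L (circles) and RPL3 (squares) in CPM (x axis, log scale) by class of nucleus (y axis) in EOM (left) and QFM (right), 1 library each; lines are 95% exact intervals for counting error. RPL3L lies above RPL3 in all myofibre-like types of both muscles, and RPL3 peaks in QFM satellite cell-like nuclei at 574.8 CPM.

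The genes whose levels followed RPL3L most closely over the 25 classes and subtypes of both nuclei libraries were fibre genes. Among 15655 genes, Pearson's r of log2(CPM + 1) was highest for TRDN, which anchors the calcium release complex, then 0.942 for LDB3 and 0.939 for MYPN, proteins of the Z-disc, 0.939 for TMEM38A, a cation channel of the sarcoplasmic reticulum, and 0.936 for ASB18. These are descriptions, since the classes of a library share its free RNA.

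In myofibre-like nuclei of EOM and QFM, RPS4Y2 stood at 164.5 and 151 CPM (log2 0.12), and RPS4Y1 at 37.8 and 55.6 CPM (-0.56). Together they made up 10.95% and 6.14% of the member UMIs there. Their related partner RPS4X has no row so named in the nuclei tables and 4596 UMIs in the cell table, so the counts of these copies are uncertain. RPL22L1, the partner of RPL22, stood at 11.6 and 14.4 CPM in myofibre-like nuclei (-0.31). In EOM cells RPL22L1 ran from 22.4 CPM in neutrophil-like (4 UMIs) and 35.3 CPM in mural-like to 162.8 CPM in macrophage- or monocyte-like and 316 CPM in B cell-like cells (11 UMIs), and RPL22 from 56.05 CPM in neutrophil-like to 739.6 CPM in T or NK cell-like cells. RPL7L1 stood at 11.5 and 10.7 CPM in myofibre-like nuclei (0.10, interval -0.11 to 0.30).

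RPL36AL, RPS27L, RPL26L1 and RPL39L were named in the cell table only. RPL36AL stood at 458.1 CPM over all EOM cells and RPS27L at 162.6 CPM, from 38.6 CPM (2 UMIs) in myofibre-like to 210.5 CPM in tenocyte-like cells. RPL26L1 stood at 27.2 CPM and RPL39L at 3.42 CPM (33 UMIs, 20 of them in endothelial- and mural-like cells). RPL10L, known from the testis, had 8 UMIs in EOM nuclei and 0 in QFM nuclei and EOM cells. RPS19BP1 stood at 7.56 CPM in EOM nuclei, 12.5 CPM in QFM nuclei and 70.1 CPM in EOM cells.

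Between muscles, lists of other translation genes in the myofibre-like class had medians between those of the members (log2 -0.91) and all genes (0.39). In myofibre-like nuclei, where 9.48% of all genes stood at least 2-fold lower in EOM, so did 3 of 15 translation factors and other TOP mRNAs, 3 of 31 ribosome biogenesis genes, a share near that of all genes, and 9 of 57 genes of mitochondrial ribosomal proteins, with medians of -0.37, -0.12 and -0.42. TPT1, a TOP mRNA, stood at 78.3 and 406.9 CPM (log2 -2.38), EIF4A2, an initiation factor, at 53.48 and 107 CPM, EIF3H at 86.9 and 111.2 CPM (-0.36) and NCL, the nucleolar protein nucleolin, at 60.0 and 105.5 CPM (-0.81). MDN1, a large-subunit assembly ATPase, stood at 146.4 and 97.98 CPM (0.58) and MRPL39 at 278.6 and 212.3 CPM (0.39). The 15 mTOR and S6 kinase genes had a median of 0.02, with the kinases RPS6KA2 at 877.3 and 328 CPM (1.42) and RPS6KA3 at 83.6 and 544.5 CPM (-2.70) far apart. Of 4 abundant cytoplasmic mRNAs 2 stood at least 2-fold lower in EOM and 0 at least 2-fold higher, with a median of -0.54: ACTB stood at 98.95 and 262.4 CPM (-1.41), PFN1 at 2.045 and 6.642 CPM (-1.70) and B2M at 98.7 and 78.6 CPM (0.33).

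In satellite cell-like nuclei the translation factor, biogenesis and mitochondrial ribosomal lists had medians below 0, closer to 0 than that of the members. Against 12.3% of all genes, 8 of 14 measured translation factors and TOP mRNAs stood at least 2-fold lower in EOM (median -1.32), 7 of 28 biogenesis genes (median -0.31) and 20 of 55 mitochondrial ribosomal proteins (median -0.71). RACK1, a protein of the small subunit, stood at 223.4 and 960.3 CPM (log2 -2.10) and NCL at 151.1 and 431.1 CPM (-1.51). The 3 measured cytoplasmic mRNAs were all more than 2-fold lower: ACTB (143.7 and 632.7 CPM, -2.14), B2M (241 and 624.3 CPM, -1.37) and PFN1 (6.49 and 93.3 CPM, -3.85). Members and abundant cytoplasmic mRNAs thus stood lower together in EOM, and the part of cytoplasm left on the nuclei was not tested.

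Between fibroblast-like cells and nuclei of EOM the lists spread widely. At least 2-fold higher in cells, against 23.4% of all genes, stood 10 of 14 translation factors and TOP mRNAs (median 1.94), 12 of 30 biogenesis genes (0.45), 40 of 56 mitochondrial ribosomal proteins (2.04) and 4 of 4 abundant cytoplasmic mRNAs (5.21). The mTOR and S6 kinase genes had a median of -1.71, and 8 of 14 stood at least 2-fold lower in cells, near the 47.8% of all genes, RICTOR among them (21.0 and 227.7 CPM, log2 -3.44). The members' median of 3.31 lay between the cytoplasmic mRNAs and the translation factors.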

How the data were processed

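The deposited tables hold whole-number UMI counts per gene and barcode. Per the file headers the nuclei tables came from Cell Ranger 7.2.0, and the submitters' processing notes also name Seurat 5.2.1. The cell table's tool, the genome build and the treatment of intronic reads were not given in the sources used here. Barcodes needed 500 UMIs, 200 genes and at most 10% (nuclei) or 20% (cells) mitochondrially encoded UMIs. Scrublet, run in scanpy 1.11.5, called 2498, 1866 and 188 doublets (15.16%, 15.06% and 2.576%), which were removed. Clusters came from 2000 variable genes, 30 components, 15 neighbours and Leiden resolution 1, without the members. A cluster was named from its markers, at least 3 of them in 10% of its barcodes. UMI counts were summed per class. A member or gene was measured with 20 counts over both sums, and counted as higher or lower past 2-fold. A count of 0 was taken as 3 counts. The calculation of ratios was checked on simulated counts with counting error alone, which cannot show variation between libraries or animals. Named were all like-named copies, the 6 largest members per library, the 8 highest and 8 lowest ratios in the myofibre-like and fibroblast-like comparisons, and up to 3 genes of largest count per list. The members RPL17, RPL18, RPS18 and RPLP0 in other classes, and genes singled out by class, were chosen after their values were seen. The 3 cell-table rows named as members only through the gene table (T2T-MFA8v1.1) were added as an alternative. Values of some genes that these rules name are not reported here, although all counts and shares include them. The list of nuclear-retained RNAs was not analysed here. The members and lists were chosen with earlier results of these data known.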

Additional observations from a re-analysis of the deposited data

How the results depend on the processing

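The alternatives kept the direction of the myofibre-, fibroblast- and endothelial-like share ratios, the ratios they were run on, and the cause of the shifts was not tested except where the alternative removes rows or barcodes. The nuclei shares given here count fewer named members than the cell shares. The share of members in EOM nuclei, QFM nuclei and EOM cells was 0.2417%, 0.4588% and 7.201%, and sets of 3 values keep this order. It came to 0.2368% (EOM nuclei) and 0.4499% (QFM) with doublets kept, and to 0.2281%, 0.4301% and 6.871% (cells) under stricter filters. Without a mitochondrial limit it was 0.244%, 0.479% and 6.83%, without like-named copies 0.195%, 0.4014% and 7.118%, and as a mean over barcodes 0.3242%, 0.5258% and 6.883%. Leaving mitochondrial UMIs out of the total gave 0.461% in QFM and 8.216% in cells; adding rows that the gene table names gave 7.341% in cells, and shared symbols alone 2.907%. Named classes alone gave 0.2203% in EOM nuclei, an alternative chosen after seeing the data.

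The myofibre-like log2 ratio of -0.86 became -0.79 with doublets kept, -0.88 at resolution 2, -0.77 with members in the clustering, -0.94 on shared symbols, -1.10 without like-named copies, -0.57 as a mean over barcodes, -0.95 without the 100 most abundant genes and -1.13 with median ratio scaling. Chosen after seeing the data, clusters set apart by their leading genes gave -0.75 when kept, leaving out low-depth clusters -0.94 and mitochondria-rich clusters -0.48, with 5 members at least 2-fold lower in place of 17. The counts of members in the myofibre-like muscle comparison and the fibroblast-like comparison of cells with nuclei otherwise stayed within 1.5 times. The count of 22 members higher in the IL7R T cell-like cluster was 14 without the most abundant genes and 2 with median ratio scaling.

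Between EOM cells and nuclei, the fibroblast-like ratio of 4.70 and the endothelial-like ratio of 4.45 became 4.63 and 4.39 under stricter filters, 4.76 and 4.49 at resolution 2, 3.48 and 3.25 on shared symbols, 4.87 and 4.64 without mitochondrial UMIs, 4.52 and 4.21 as means over barcodes, 4.98 and 4.64 without the most abundant genes, 4.83 and 4.84 with median ratio scaling, and 4.67 and 4.35 with the set-apart clusters kept (added after seeing the data). The endothelial-like ratio was 4.68 with doublets kept, 4.40 with members in the clustering and 4.48 with gene-table rows. No paired analysis was possible because each group is 1 library and no replicate could be left out.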
